A study of Neurospora crassa with 16 samples.

Results

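Neurospora crassa, a filamentous fungus that grows on burnt plant material, secretes enzymes that take the plant cell wall apart. The genes described here encode 9 such enzymes: the cellobiohydrolases cbh-1 and gh6-2, the endoglucanase gh5-1, the β-glucosidases gh3-4 and gh1-1, the lytic polysaccharide monooxygenases gh61-4 and gh61-6, the endoxylanase gh10-2 and the polygalacturonase gh28-1. They were chosen by locus as a functional group, all 9 were found among 9730 counted genes, and the reference gene table carries the same symbol for each. The 9 and the gene lists used below were chosen with earlier results of these data known. Their shares beside those of all genes are therefore a description only. The study measured chromatin marks, DNA methylation and polyadenylated RNA in mutants of lsd1, a histone demethylase gene, and its other 14 samples were not analysed here.

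Expression came from 2 RNA-seq libraries of a single Δlsd1 strain, N5555, of mating type a, whose lsd1 carries a hph replacement. The wild-type strain N3752, of mating type A, entered as a mean over libraries of another series in the authors' 2 deposited tables of higher and lower genes. Deletion, mating type, strain and series therefore cannot be told apart in any comparison with wild type. The Δlsd1 cultures were shaken in Vogel's minimal medium with 1.5% sucrose at 32 °C, and mycelia were harvested after 16 h, although the tissue label reads germinated conidia. The labels name sucrose and no inducer of the enzymes, so the levels are taken as basal ones on sucrose. In bulk RNA, fewer cells of a type and less RNA per cell cannot be told apart.

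Cellulose is broken down by enzymes that work together. Endoglucanases cut within the chain, cellobiohydrolases release cellobiose from its ends, monooxygenases cleave crystalline surfaces by oxidation, and β-glucosidases split cellobiose to glucose. In Neurospora these genes are known to be switched on by the transcription factors CLR-1 and CLR-2 (cellulose) and XLR-1 (xylan), and held down on preferred sugars through the repressor CRE-1.

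The libraries held 7017726 (replicate 1) and 6797672 (replicate 2) reads on genes. NCU09120, understood to be lsd1, kept 41 and 65 reads, and its normalised mean in the authors' deposited table was 88.7 in Δlsd1 and 675 in wild type. The 3 mating type A genes had no read in either library. Of 5 genes linked to conidiation, 4 had more counts per 1000000 (CPM) in replicate 1, led by the hydrophobin gene eas with 1351 CPM in replicate 1 and 338 CPM in replicate 2, while con-8, the most abundant, was 1.31-fold higher in replicate 2. Of 3 growth genes, gpd-1 was 1.19-fold higher in replicate 2, with 21794 CPM in replicate 1 and 26040 CPM in replicate 2, and tef-1 and act differed 1.03-fold and 1.07-fold. Together the 3 had 30287 CPM in replicate 1 and 34719 CPM in replicate 2. Nothing in the labels says that the 2 libraries came from separate cultures, so their spread may be technical.

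Most of the reads on the 9 genes came from 1 of them. In replicate 1 the 9 genes took 1390 reads, of which gh28-1 had 52.4% (95% Wilson interval 49.7 to 54.99%). In replicate 2 they took 2950 reads, of which gh28-1 had 80.5% (79.0 to 81.9%). Without gh28-1, the other 8 genes together had 662 reads in replicate 1 and 575 in replicate 2. These intervals cover counting error only.

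Per kb of annotated gene span, the levels in Δlsd1 ran over a wide range, from gh28-1 down to gh10-2 and gh61-4. The polygalacturonase gene gh28-1, whose product cuts pectin, stood at 147 ± 116 CPM per kb (SD, n = 2), above 95.5% of all counted genes. The monooxygenase gene gh61-6 followed at 26.9 ± 3.55 CPM per kb, above 80.8%. Both genes thus stood well above most of the genome, and no other of the 9 came above 61.9% of genes.

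The cellobiohydrolase genes lay near the middle of all genes, gh6-2 above 61.9% and cbh-1 above 47.1% of them. For gh6-2 the level was 10.2 ± 0.485 CPM per kb (SD, n = 2). For cbh-1, which encodes an abundant secreted cellulase, it was 5.00 ± 0.853 CPM per kb. Without regard to length, gh6-2 had 15.98 and 14.9 CPM and cbh-1 13.6 and 17.4 CPM in the 2 libraries, and the shorter span of gh6-2 sets it 2.04-fold above cbh-1 per kb.

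The β-glucosidase and endoglucanase genes were lower. The intracellular β-glucosidase gene gh1-1 had 3.12 ± 0.707 CPM per kb (SD, n = 2). The secreted β-glucosidase gene gh3-4 had 1.49 ± 0.805 CPM per kb, and the endoglucanase gene gh5-1 had 0.938 ± 0.0932 CPM per kb. In this order of levels, gh3-4 and gh5-1 had overlapping ranges over the 2 libraries. The ranges of the other neighbouring pairs did not overlap, from gh28-1 over gh61-6, gh6-2, cbh-1 and gh1-1 to gh3-4 and from gh5-1 to gh10-2. Those of gh10-2 and gh61-4 did not overlap either, but rest on at most 2 reads per library. Such ranges are the library values alone and leave out counting error.

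Another 2 of the 9 were at or near zero reads. The endoxylanase gene gh10-2 had 2 reads in each library, 0.290 CPM on average, with an exact Poisson interval of 0.0337 to 1.00 CPM in replicate 1 and 0.0365 to 1.09 CPM in replicate 2. The monooxygenase gene gh61-4 (NCU01050, chromosome V, 2769232 to 2770004, assembly NC12) had no read in either library. By the same 95% Poisson interval this allows up to 0.513 CPM in replicate 1 and 0.557 CPM in replicate 2. With 3 counts as the upper limit instead, the values were 0.417 CPM in replicate 1 and 0.453 CPM in replicate 2. By either limit, gh10-2 and gh61-4 cannot be ordered at this depth.

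**Figure D1:**
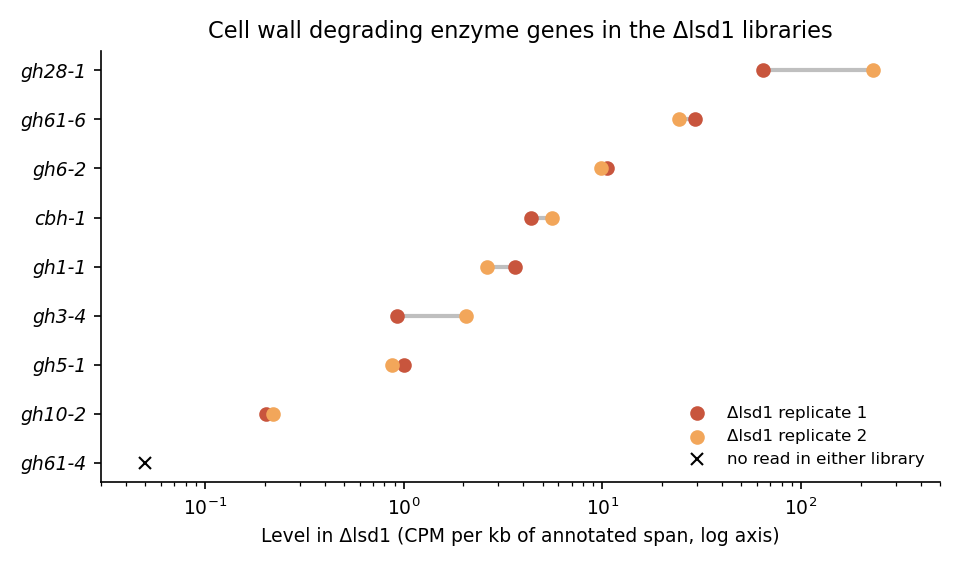
Level of each of the 9 genes in Δlsd1 replicate 1 and replicate 2, in CPM per kb of annotated span on a log axis, ordered by the mean; the cross marks gh61-4, which had no read and no position on the axis. The libraries lie close together for most genes, and furthest apart for gh28-1 and gh3-4.

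Against wild type, 3 of the 9 genes were in the authors' deposited tables, 2 lower and 1 higher. That is 22.2% lower and 11.1% higher, beside 8.69% lower and 3.51% higher among 8692 genes with a read or an entry. Over all 9730 counted genes, which include genes without a read such as gh61-4, the shares were 7.76% and 3.13%, and with 9 genes each one moves the share by 11.1%. Every tabled gene changed by at least 2.00-fold, and the largest unadjusted p was 0.0497. For the other 6 genes no wild-type value was used here.

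The polygalacturonase gene gh28-1 (NCU02369, chromosome VII, 2726293 to 2727854) was lower in Δlsd1. On the authors' scale of normalised counts it had 1139 in replicate 1 and 4023 in replicate 2 of Δlsd1, against 12095 as the wild-type mean of that table. Both libraries lay below that mean. The authors' deposited table gave a log2 fold change of -2.23, a 4.69-fold lower level, with an adjusted p = 2.30e-06. The size rests on the library: gh28-1 was 10.6-fold lower by replicate 1 alone and 3.01-fold lower by replicate 2 alone.

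The intracellular β-glucosidase gene gh1-1 (NCU00130, chromosome III, 2730966 to 2733380) was also lower. It had normalised counts of 100.0 in replicate 1 and 72.8 in replicate 2 of Δlsd1, against 331 as the wild-type mean of the same tables. The authors' deposited table gave a log2 fold change of -1.94, 3.83-fold lower, with an adjusted p = 2.54e-07. By single libraries gh1-1 was 3.31-fold and 4.54-fold lower, so both placed it below the wild-type mean.

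The monooxygenase gene gh61-6 (NCU03328, chromosome II, 1091218 to 1092875) was higher. It had normalised counts of 550.1 in replicate 1 and 455 in replicate 2 of Δlsd1, against 136 as the wild-type mean of the same tables. The authors' deposited table gave a log2 fold change of 1.88, 3.69-fold higher, with an adjusted p = 1.47e-11. By single libraries gh61-6 was 4.04-fold and 3.34-fold higher. It ranked 25 of 305 higher genes by fold, while gh28-1 ranked 86 and gh1-1 ranked 140 of 755 lower genes.

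The ratios among the 3 genes differed in how far they moved. Per kb, gh61-6 stood at 303 normalised counts and gh1-1 at 35.8 in Δlsd1, against 82.2 and 137 in wild type, by the authors' deposited tables. The monooxygenase gene was thus 8.47-fold above the β-glucosidase gene in Δlsd1 and at 0.600 of it in wild type. The polygalacturonase gene gh28-1 was 5.45-fold above gh61-6 per kb in Δlsd1, 2.20-fold in replicate 1 and 9.38-fold in replicate 2, against 94.2-fold in wild type by the authors' deposited tables. Over gh1-1, gh28-1 stood 46.2-fold higher in Δlsd1, with 17.6-fold in replicate 1 and 85.4-fold in replicate 2, against 56.5-fold in wild type by the authors' deposited tables, so the libraries lay on either side of the wild-type ratio. All of these ratios compare levels per kb of annotated span. Because gh61-6 was called higher and the other genes lower, the direction of the shifts in its ratios was fixed by those calls. The ratios restate the folds above and add no further result.

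**Figure D2:**
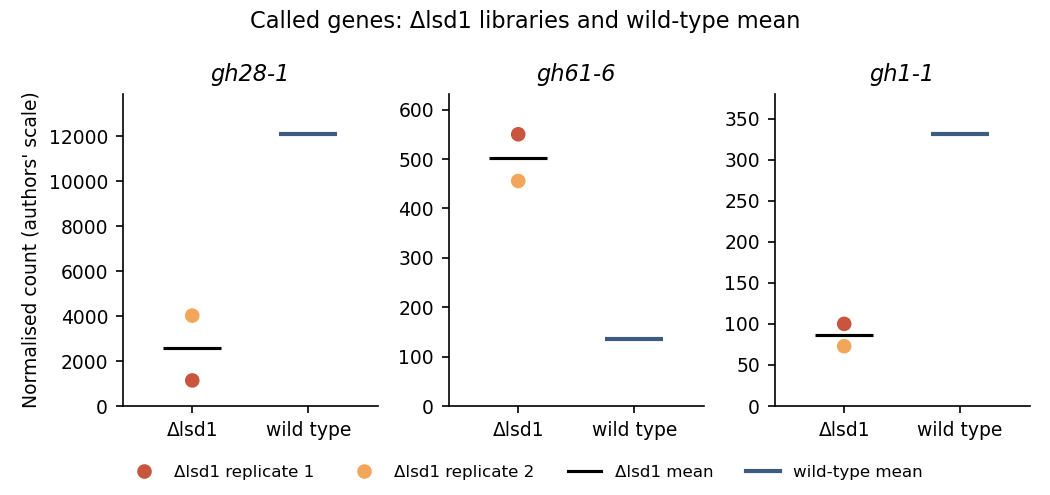
Normalised counts of gh28-1, gh61-6 and gh1-1 on the authors' scale, each panel with its own axis from 0; points are the 2 Δlsd1 libraries, the black line their mean and the blue line the authors' mean for wild type. Both Δlsd1 libraries lie below the wild-type mean for gh28-1 and gh1-1 and above it for gh61-6.

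How far the tables reach depends on the level. Within 1.5-fold of the Δlsd1 level of cbh-1, a normalised mean of 176, the authors' deposited tables hold 172 genes, 58 of them higher, with smallest changes of 2.00-fold for lower and 2.01-fold for higher genes. The same genes surround gh6-2, whose mean was 175. Around gh3-4 there were 164 lower and 26 higher genes and around gh5-1 140 lower and 6 higher, the smallest rise near gh5-1 being 2.54-fold. Some genes at these levels thus entered the authors' deposited tables after changes near 2-fold, except for rises at the level of gh5-1. Entry also depends on the spread of a gene, and the 2 libraries of gh3-4 differed 2.23-fold. Absence of a gene therefore does not show a change under 2-fold.

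Near gh10-2 the reach was short. The authors' deposited tables hold 20 lower genes within 1.5-fold of its level, with a smallest change of 3.55-fold, and 0 higher genes. Around gh61-4 they hold 5 lower genes, with a smallest change of 8.63-fold, and 0 higher genes.

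By the distance over log2 values of the wild-type mean and both Δlsd1 libraries, the pattern most like that of gh1-1 was shown by NCU09287 (0.10), NCU07618 (0.36) and NCU05448 (0.39) among 754 other lower genes. Those nearest to gh28-1 were NCU06327 (0.81), NCU07033 (1.32) and the heat shock gene hsp80 (1.37). NCU06327 shared its shape over the libraries, with 1599 normalised counts in replicate 1 and 4772 in replicate 2 of Δlsd1, against 7995 as the wild-type mean in the same tables. Those nearest to gh61-6 among 304 other higher genes were the kinase gene stk-8 (0.32), NCU02396 (0.34) and NCU04066 (0.38). The likeness is a description over 3 values.

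**Figure D3:**
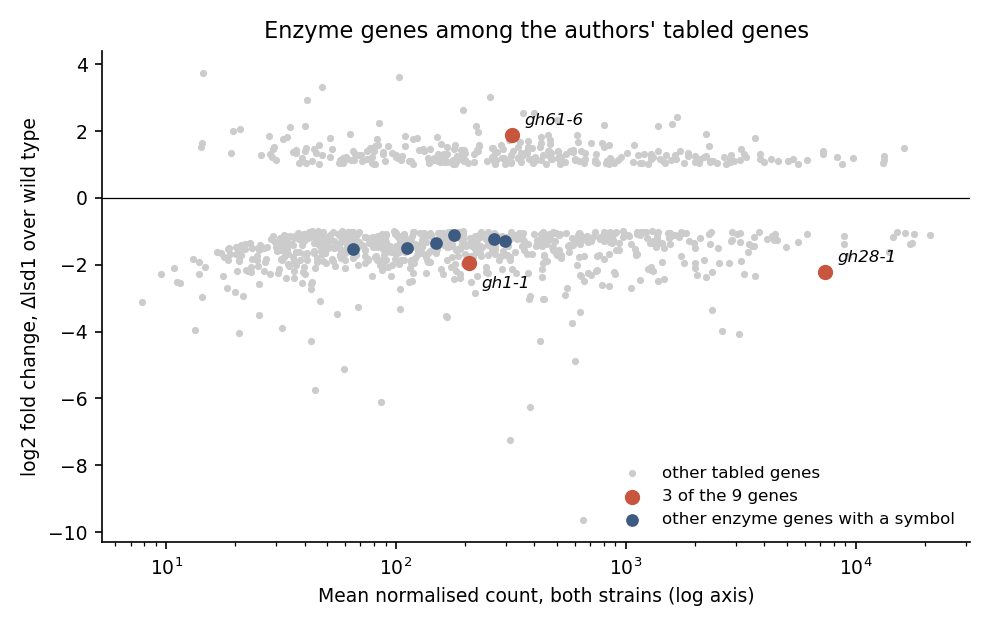
Each of the 1060 genes in the authors' deposited tables by its mean normalised count over both strains (log axis) and its log2 fold change, Δlsd1 over wild type. The red points are gh61-6 above 0 and gh28-1 and gh1-1 below it, and the blue points are 6 other enzyme genes with a symbol, all below 0.

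The 2 Δlsd1 libraries differed at 2 of the 7 genes with at least 10 reads in each, by an exact two-sided binomial test on reads with Benjamini-Hochberg adjustment over 7319 genes. The test called 27.1% of these genes. It compares these libraries, not conditions, and takes reads as independent molecules, so its p-values cover counting error only. The gene gh28-1 had 101 CPM in replicate 1 and 358 CPM in replicate 2, 3.54-fold apart (adjusted exact binomial p = 3.44e-230). This gap was at the 99.8th percentile of all tested genes. The gene gh3-4 had 18 and 37 reads, 2.23-fold more in replicate 2 (adjusted exact binomial p = 0.0193). Only 2.23% of the 7319 genes both passed the test and differed at least 2-fold.

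The other 5 tested genes differed 1.07-fold to 1.38-fold, with adjusted exact binomial p from 0.0733 to 0.934. They were cbh-1, gh6-2, gh5-1, gh61-6 and gh1-1. Scaled to library totals, gh61-6 also passed (adjusted exact binomial p = 0.0147). The conidiation gene eas was 3.99-fold higher in replicate 1, opposite to gh28-1, and the 5 conidiation genes together had 2977 CPM in replicate 1 and 2367 CPM in replicate 2, with reads on all 5. The direction of this sum rests on eas: without it the other 4 had 1626 CPM in replicate 1 and 2029 CPM in replicate 2, most of it con-8. Their part in the levels of gh28-1 and gh3-4 was not tested.

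**Figure D4:**
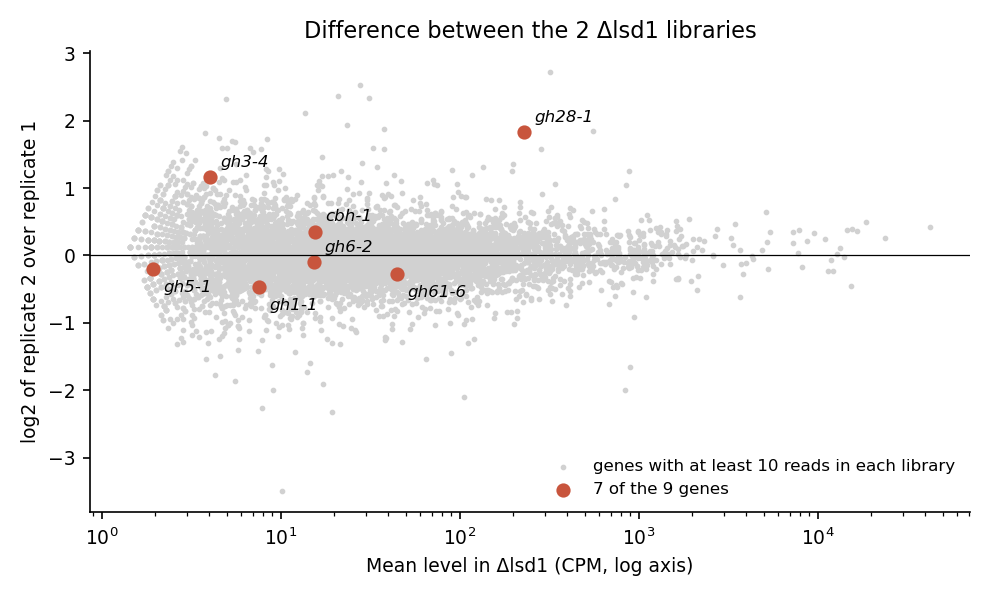
Log2 of replicate 2 over replicate 1 against mean CPM (log axis) for genes with at least 10 reads in each Δlsd1 library, with 7 of the 9 genes in red. The points of gh28-1 at 1.82 and gh3-4 at 1.16 lie above most of the grey points, and the other 5 lie within them.

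The wider set of enzyme genes holds 80 carbohydrate-active enzyme genes, the 9 and every other gene with a glycoside hydrolase symbol in the reference table. The authors' deposited tables hold 8 of these as lower (10.0%) and 1 as higher, against 7.76% and 3.13% of all 9730 counted genes. Among the 71 that are not of the 9, 6 were lower (8.45%) and 0 higher, so the lower share was near that of all counted genes. The only higher gene of the 80 was gh61-6.

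Genes other than the 9 were placed in substrate groups by glycoside hydrolase family number alone, so the substrate of a single gene may differ. In these groups, 3 of 30 cellulose genes were lower and 1 higher. Of 8 hemicellulose genes 1 was lower, and of 2 pectin genes 1. For starch and storage glucan, 0 of 9 genes were in either table (the glucoamylase gene gla-1 carries no family symbol and is not counted here). Of 18 genes for the fungus's own wall 1 was lower, and of 13 others 2. The β-glucosidase family gene gh3-5 had a log2 fold change of -1.28 (adjusted p = 3.40e-06) in the authors' deposited table and gh3-3 -1.52 (adjusted p = 0.103). The xylanase family gene gh10-3 stood at -1.51 (adjusted p = 0.00300) in the authors' deposited table. The other lower genes of the authors' deposited table were gh47-6 (-1.34) and gh47-4 (-1.10), of a family of mannosidases, and gh76-5 (-1.24). Of the 8 lower genes, all 8 stayed at least 2-fold lower by replicate 1 alone and 5 by replicate 2 alone, where gh10-3, gh47-4 and gh76-5 were 1.91-fold, 1.95-fold and 1.88-fold lower.

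The monooxygenase family was uneven. Of 11 gh61 genes, 4 had no read in either library, namely gh61-4, gh61-7, gh61-10 and gh61-11. The highest was gh61-9 at 60.0 ± 34.7 CPM per kb (SD, n = 2), then gh61-6 at 26.9, and the other 5 lay between 1.46 and 4.45 CPM per kb. Like gh28-1, gh61-9 was higher in replicate 2, 2.38-fold (adjusted exact binomial p = 1.27e-101). It was in neither table.

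Per kb, the median level of the 9 genes was 3.12 CPM, of the 71 other enzyme genes 2.13 CPM and of all counted genes 5.77 CPM. The cellulose genes had a median of 1.49 CPM per kb and held 6 of the 8 enzyme genes without a read. The highest of the 80 was gh13-1, of a starch and glycogen enzyme family, at 493 CPM per kb. Within the cellulose group, set by family number, gh3-1 was highest at 214 CPM per kb. The polygalacturonase gene gh28-1 was 1 of 2 pectin genes, and gh28-2 had 23.8 CPM per kb and was in neither table.

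**Figure D5:**
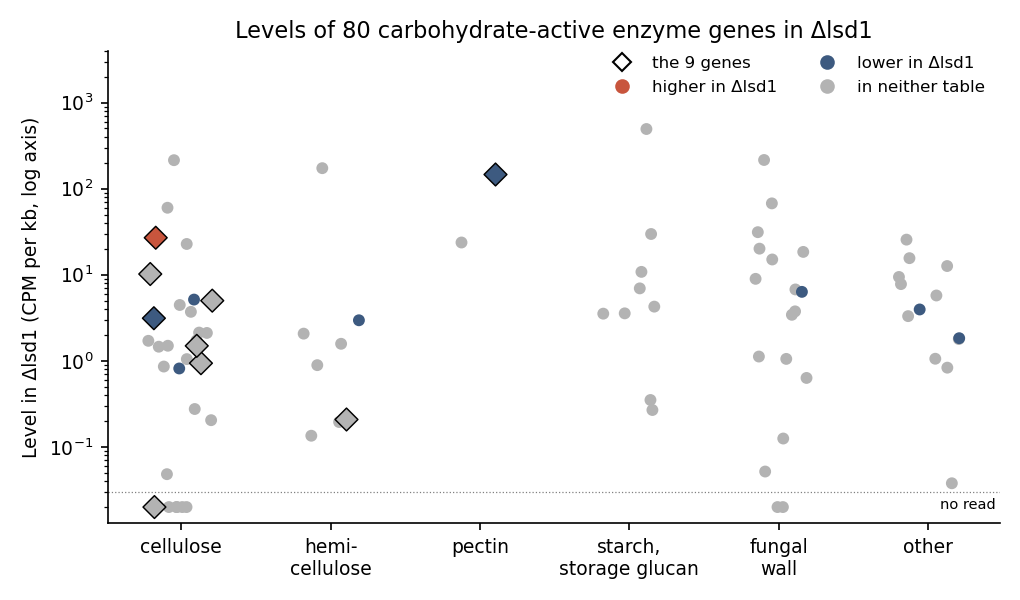
Mean level in the 2 Δlsd1 libraries (CPM per kb of annotated span, log axis) of 80 carbohydrate-active enzyme genes by substrate group; diamonds are the 9 genes, red and blue mark genes higher and lower in Δlsd1 by the authors' deposited tables, and points under the dotted line had no read. The called genes lie at levels that genes in neither table also have, and gh61-6 is the only red point.

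Among 12 genes of the regulators, sugar transporters and the partner oxidase, 3 were lower (25.0%) and 0 higher in the authors' deposited tables, against 7.76% and 3.13% of all 9730 counted genes. The carbon repressor gene cre-1 had, in the authors' deposited table, a normalised mean of 1940 in Δlsd1 against 5240 in wild type (log2 fold change -1.43), and the regulator gene col-26 had 860.0 against 1724 (-1.004). The cellodextrin transporter gene cdt-2 had, in the authors' deposited table, 36.9 in Δlsd1 against 87.7 in wild type (log2 fold change -1.25, adjusted p = 0.0222). By single libraries cdt-2 stood at -0.86 and -1.79, and col-26 at -1.15 and -0.87, so 1 library of each fell short of 2-fold.

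The activator genes clr-1, clr-2 and xlr-1 were in neither table. Their levels in Δlsd1 were 35.6 ± 1.56 CPM for clr-1, 2.32 ± 0.135 CPM for clr-2 and 13.7 ± 0.427 CPM for xlr-1 (SD, n = 2 each). The other transporter gene, cdt-1, had 279 ± 46.0 CPM, and cdh-1, the cellobiose dehydrogenase that passes electrons to the monooxygenases, had 2.76 ± 0.365 CPM. All 3 activator genes were close between the libraries, at most 1.09-fold apart. Of 5 genes for sucrose and glucose use, the glucoamylase gene gla-1 was higher (log2 fold change 1.48, adjusted p = 0.00502) and hgt-1 lower (-1.69) in the authors' deposited tables, while the invertase gene inv, at 2974 ± 208 CPM, was in neither. That is 20.0% each way, against 7.76% lower and 3.13% higher among all 9730 counted genes. By replicate 1 and replicate 2 alone, gla-1 was 3.28-fold and 2.28-fold higher, and hgt-1 2.66-fold and 4.12-fold lower.

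The 9 genes lay on 6 chromosomes, and their median distance to a deposited region was near that of all genes. Beside those placed above, gh5-1 (NCU00762) spans 7271711 to 7273785 on chromosome I, gh10-2 (NCU08189) 4598536 to 4599913 on III, gh3-4 (NCU04952) 846341 to 849048 and cbh-1 (NCU07340) 4311049 to 4314145 on IV, and gh6-2 (NCU09680) 858215 to 859731 on V, all on NC12. None overlapped 1 of the 250 regions, and the nearest, gh3-4, was 30.8 kb from one. Their median distance was 60.98 kb, against 65.5 kb for all 9729 placed genes, 236 of which overlapped a region. Of 90 genes within 5 places on either side of the 9, 5 were lower (5.56%) and 5 higher (5.56%), against 7.76% and 3.13% of all 9730 counted genes.

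Some neighbours bear on the counts. The annotated span of gh28-1 overlaps that of NCU02368 by 294 bp, where reads cannot be told apart if strand was not used. Reads counted as ambiguous stayed outside the gene counts, 9774 in replicate 1 and 7130 in replicate 2. How many of them came from this overlap is not given. NCU02368 was in neither table, with 340 reads in replicate 1 and 227 in replicate 2. The other neighbour of gh28-1, NCU02370, lay 507 bp away and was lower too. The authors' deposited table gave NCU02370 a mean of 145 in Δlsd1 against 385 in wild type (log2 fold change -1.40, adjusted p = 2.14e-05). The neighbours of gh61-6 (NCU03329 and NCU16528) and of gh1-1 (NCU16661 and NCU00132) were in neither table. The right-hand neighbour of gh61-6 lay 59.4 kb away and had no read.

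Another pair was chosen after its values were seen. NCU09681, 150 bp from gh6-2, was higher, and the authors' deposited table gave it a mean of 1125 in Δlsd1 against 527 in wild type (log2 fold change 1.09). NCU08190, whose span overlaps that of gh10-2 by 24 bp, was lower in the authors' deposited table (log2 fold change -1.10, adjusted p = 0.000362). Neither gh6-2 nor gh10-2 was in a table.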

How the data were processed

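The deposited count files hold raw read counts per gene for the 2 Δlsd1 RNA-seq libraries, made with a stranded kit per the labels' protocols. The submitters' processing notes name Bowtie2, DESeq2 and deepTools; version, build, counting program and use of strand are not given there. Closing rows that name no gene (reads outside genes were 12.3% and 12.7%) stayed out of library sizes. Per the file headers, the authors' tables hold mean normalised counts (a signal per gene and group), a fold change (ratio), the log2 of it, and p-values with adjusted p-values, in column names of the older DESeq package, so the program behind them is not settled. The deposited regions are positions only, and supercontigs 1 to 7 were taken as chromosomes I to VII.

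The authors' Δlsd1 means were recovered for all 1060 tabled genes as the mean of (count + 1) divided by size factors of 0.640 and 0.591, which settles the direction and gives each library's value. The added 1 shrinks the folds of low genes. No count model across groups was fitted, because wild-type counts were not used here. CPM was scaled by TMM, edgeR's trimmed mean, from genes reaching 10 reads in both libraries. The split between libraries was tested by an exact binomial test, which covers counting error only. It was checked on data simulated with counting error only, so the check does not cover spread beyond that. Spans are those of NC12 in the reference table, which matched 9729 of 9730 genes.

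The 9 genes and the lists were chosen with earlier results of these data known. Named by rule are the 9, the listed enzyme genes and regulators in the tables, clr-1, clr-2, xlr-1 and cre-1, the 3 most alike genes, and neighbours of called genes; others were added for their level or family. NCU09033, NCU04295, NCU05846, vib-1, NCU01633 and sor-4 complete the lists and were in neither table. Tools were edgeR 4.0.16 and DESeq2 1.42.0 in R 4.3.3, and scipy 1.17.1, pandas 2.3.3, matplotlib 3.10.9 and numpy 2.4.6 in Python 3.11.15.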

Additional observations from a re-analysis of the deposited data

How the results depend on the processing

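The counts of called members, 2 lower and 1 higher, were the same with an adjusted p under 0.05. All 3 also stayed at least 2-fold from the wild-type mean with either replicate left out. Leaving out a replicate repeated no test. It checked the fold of tabled genes only, so these counts could fall but not rise. Of the 80 enzyme genes, 7 lower genes had an adjusted p under 0.05. With 1 replicate left out, 5 to 8 stayed at least 2-fold lower. The members that differed between the libraries numbered 2 by TMM, by DESeq2 size factors and with no minimum count, and 3 by library totals. No member lay within 1, 5 or 20 kb of a region. The share of all genes within these distances is not given here, and 236 of 9729 placed genes overlapped a region. No paired analysis was possible because only 1 RNA group has files and wild type enters as a mean. Ordering by coding length and the promoter motif search were not run, since no sequences were given. Depth limits gh10-2 and gh61-4 most, with at most 2 reads per library.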
